A study of Arabidopsis thaliana with 6 samples.

Results

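The wall-associated kinases (WAKs) and WAK-like kinases of Arabidopsis thaliana were followed gene by gene in sorted root cells carrying 1 of 2 fluorescent reporters. The family was taken as a list of 31 genes by locus tag, put together with earlier results of these data known. Of these 31 genes, 14 were measured by a probe set that names a single gene, out of 13355 genes measured in this way on the array. Another gene, AT4G31110, is named only on a probe set that lists it together with a neighbour, AT4G31115. The other 16 have no named probe set and were not analysed here. They include WAK1 to WAK5, WAKL1 to WAKL7, RFO1 and WAKL10. The results below therefore concern loci that the gene table knows by locus alone, and none of the WAKs proper. Among the 14, AT5G38210, AT1G25390, AT1G18390 and AT1G66880 were listed as an LRK10-like group. All 14 are called WAK-like loci below for short. A gene with more than 1 such probe set was represented by that of highest mean log2 intensity over all 6 arrays, so probe sets were selected on a mean that gives both groups equal weight. The genes were chosen by locus, and the list may owe its choice to the known contrast between the reporters. Levels, differences and p-values are therefore given as a description of the loci.

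The samples are roots of seedlings of the Col-0 ecotype, 5 days old, grown on standard medium and dissociated into single cells without walls (protoplasts), from which fluorescent cells were sorted. There were 3 samples from plants with WOX5::GFP and 3 from plants with pTMO5::GFP, each hybridised to 1 Affymetrix array. The homeobox gene WOX5 marks the quiescent centre, a small group of rarely dividing cells around which the root stem cells lie, and the basic helix-loop-helix gene TMO5 is active in young vascular cells. The sample descriptions call the WOX5 cells quiescent centre and the TMO5 cells xylem, but the cell type tags swap these names, and the reporter is used here to name each group. In both groups a cell was collected because its reporter was bright enough to sort, and the labels do not say from how many plants or separate cultures the samples came. P-values therefore reflect variation among these arrays alone, and that variation may be technical.

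WAKs are receptor kinases that cross the plasma membrane. The part outside the cell binds pectin of the wall, and the part inside is a serine/threonine kinase. They are known for binding pectin fragments released when the wall is damaged or digested, and for roles in cell expansion and in defence. WAK-like proteins are their relatives, and most have no assigned ligand. No protein or promoter sequences were used here.

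The gene annotation left a cell-type check on few genes. AGL42, BBM, CR4, JKD and BRL1, all 5 measured genes of the quiescent centre and stem cell niche list, passed as higher in WOX5 cells. Their summed intensities were 1838 to 3170 on the WOX5 arrays and 693 to 754 on the TMO5 arrays. Among 3 measured xylem genes 1, PHV, was lower in WOX5 cells, with a log2 difference of -1.055. The other 2, LHW and GUT2, did not pass and had log2 differences of 0.08 and 0.67, the other way. The groups of GUT2 did not overlap. Sums over the xylem genes were 989 to 1347 on WOX5 arrays against 1269 to 1311 on TMO5 arrays. Of 5 genes of epidermis and root hairs, 3 passed as lower in WOX5 cells, with sums of 219 to 297 against 547 to 996. Passing genes of other types were 1 of 3 from ground tissue and 1 of 2 from the pericycle list, both higher in WOX5 cells, and none of the 1 root cap and 1 phloem gene measured. Of the ground tissue genes that did not pass, AT1G09750 had a log2 difference of -1.21, with groups that did not overlap, and GSO1 one of 0.08. Of 3 genes that respond to wounding and protoplasting, 1 was higher and 1 lower. Both groups were protoplasted, which digests the wall, and no undigested roots are among the samples. The transcripts of WOX5 and TMO5 themselves have no named probe set. No marker was listed at 0. The arrays of the 2 groups also differed in their controls. The 3′ to 5′ intensity ratio of the GAPDH control was 1.919 to 2.005 on WOX5 arrays and 3.580 to 3.789 on TMO5 arrays, and the bioB spike (middle probe set) stood at 31.8 to 37.7 against 493 to 506. The labels mention labelling in 1 and in 2 cycles without assigning either to these arrays. Each reporter has its own set of arrays, so differences in labelling or hybridisation and differences between the cells cannot be told apart in any comparison below.

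The comparison asked how transcript levels of the WAK-like loci differ between cells marked by the 2 reporters. The deposited intensities are on a linear scale. Differences are WOX5 minus TMO5 on the log2 scale from limma fitted to all 22746 probe sets that are not controls, and a locus was called when its Benjamini-Hochberg adjusted p over all of them was below 0.05. Of the 14 measured loci, 2 were higher in WOX5 cells, AT5G02070 and AT3G53840, and 1 was lower, AT4G31100. The remaining 11 did not pass, among them all 4 of the LRK10-like group. Over all 13355 genes, 22.2% were called, 12.7% as higher and 9.43% as lower, so the share of called loci, 21.4%, was near that of genes at large. The balance depends on the scaling: with centred arrays or quantile normalization 1 locus was higher and 2 were lower, and over all probe sets rises against falls went from 3252 and 2159 to 2241 and 5297 or to 2565 and 2866. On the log2 scale 1 locus, AT5G02070, stood apart at 7.42, and the differences of the other 13 ran from -1.37 to 1.31. The median of all 14 loci was 0.27, against 0.02 for all genes, and it was 0.21 over the 13 loci other than AT5G02070.

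**Figure D1:**
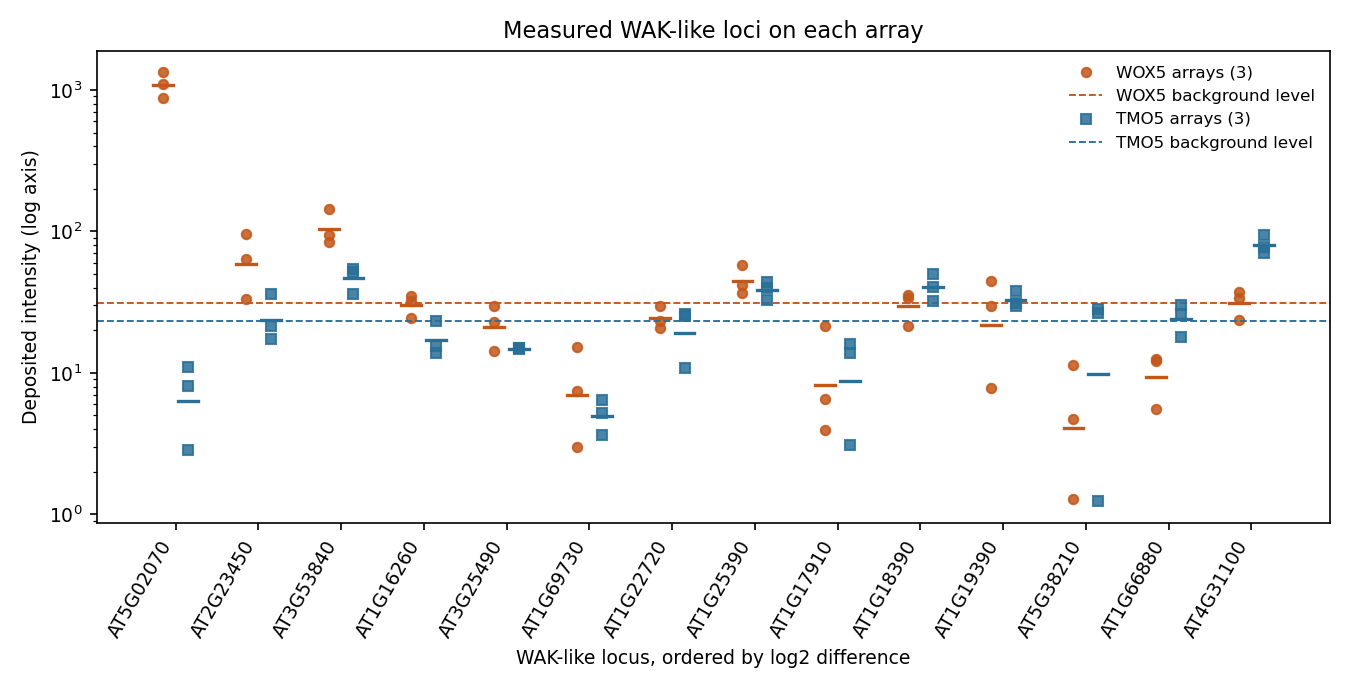
Deposited intensity (log axis) of the 14 measured WAK-like loci on each of the 6 arrays, ordered by log2 difference. Points are single arrays, short bars are geometric means of 3 arrays, and dashed lines are the background level of each group, 31.1 in WOX5 and 23.4 in TMO5. AT5G02070 lies between 873 and 1335 on WOX5 arrays and under the background level on all TMO5 arrays, while most other loci lie near or under the dashed lines.

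AT5G02070 had an intensity of 873, 1335 and 1093 on the 3 WOX5 arrays and of 10.98, 2.85 and 8.05 on the 3 TMO5 arrays. Every WOX5 array was far above every TMO5 array, and the TMO5 values all fell below the level of probe sets with no target. That background level is the 95th percentile, per group, of the geometric means of 27 unspiked bacterial controls, and was 31.1 in WOX5 and 23.4 in TMO5 cells. The group means were 1100 ± 231 in WOX5 and 7.29 ± 4.11 in TMO5 cells (SD, n = 3). Means given with an SD are arithmetic, here and below. Folds were taken from geometric means, with the background level in place of the mean of a group within background. Since only the WOX5 level was measured above background, the fold is a lower bound, and WOX5 cells exceeded TMO5 cells by at least 46.2-fold (adjusted p = 0.00135 by limma). The fitted log2 difference was 7.42 ± 0.53 (SE), with a 95% interval of 6.10 to 8.74, and its size depends on TMO5 values that lie within background. By this measure AT5G02070 was at place 6 among the rises of all 13355 genes, and at place 5 when every array was floored at its 20th percentile. Fewer expressing cells and less RNA in each cell cannot be told apart in sorted bulk samples. WOX5 replicate 2, which differed from the other WOX5 arrays more than they did from each other over brighter probe sets (SD of log2 differences 0.60 and 0.59 against 0.34), had the highest value of this locus. Without that array the log2 difference was 7.27 and the limma adjusted p was 0.0069. The 5 genes of the quiescent centre and stem cell niche list were higher on the same WOX5 arrays. The part of cell makeup in this result was not tested.

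AT3G53840 was the other locus higher in WOX5 cells and the only called locus above background in both groups. WOX5 arrays gave 94.3, 83.9 and 143, and TMO5 arrays 35.9, 53.9 and 51.96. The lowest WOX5 array was above the highest TMO5 array, so the groups did not overlap. The means were 107 ± 31.45 and 47.3 ± 9.89 (SD, n = 3), a 2.24-fold difference with a log2 value of 1.16 ± 0.28 (SE; limma adjusted p = 0.0362). This call lay close to the threshold. It was lost without WOX5 replicate 1 or 3 or any 1 TMO5 array (limma adjusted p of 0.0749 to 0.0959), with quantile normalization (0.103) and after centring each array (0.0991). Its direction was the same in all of these, with log2 differences of 0.79 to 1.27.

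AT4G31100 was the locus lower in WOX5 cells. WOX5 arrays gave intensities of 23.7, 37.1 and 33.7, and TMO5 arrays of 93.6, 70.7 and 77.4. The groups were well apart, and all 3 TMO5 arrays were above background. In WOX5 cells the geometric mean of 31.0 lay at the background level of 31.1, which gives a fall of at least 2.57-fold. The log2 difference was -1.37 ± 0.23 (SE), with a 95% interval of -1.94 to -0.80 (limma adjusted p = 0.0126). The call held without each array in turn (limma adjusted p up to 0.0458) and was lost with a replicate block (0.0704). In gene order on the TAIR10.1 assembly its next protein-coding neighbour is AT4G31110, which also belongs to the family. The probe set that names AT4G31110 and AT4G31115 together gave 4.01, 30.5 and 26.1 in WOX5 samples, and 39.6, 23.1 and 24.2 in TMO5 samples. These values overlapped, and the difference of -0.93 ± 0.83 (SE) did not pass (limma adjusted p = 0.458). How much of the signal comes from either gene cannot be told from this probe set.

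**Figure D2:**
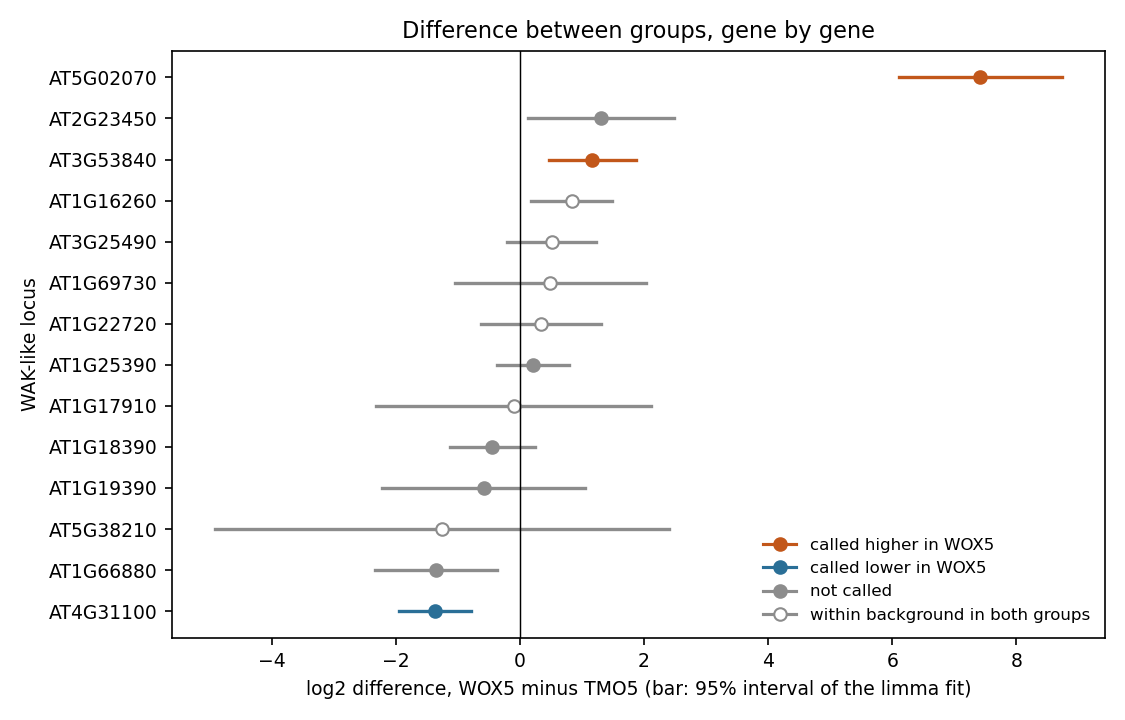
Log2 difference, WOX5 minus TMO5, of each measured WAK-like locus with its 95% interval from the limma fit. Open circles mark the 6 loci within background in both groups. The interval of AT5G02070, 6.10 to 8.74, lies above those of all other loci, and the intervals of 8 of the 11 loci that were not called include 0.

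Of the 11 loci that did not pass, 5 were above background in at least 1 group. For AT2G23450 the intensities were 33.1, 96.1 and 64.1 with WOX5, and 17.4, 35.8 and 21.6 with TMO5. The groups overlapped, because TMO5 replicate 2 exceeded WOX5 replicate 1, and the TMO5 geometric mean of 23.8 was barely over background. Its log2 difference of 1.31 ± 0.48 (SE) was larger than that of AT3G53840 but less precisely measured (limma adjusted p = 0.103). It passed as higher when the dimmest probe sets were left out (0.0386) and when variances followed an intensity trend with robust estimation (0.0466). AT1G25390 was above background in both groups, at 58.3, 36.8 and 41.7 against 44.1, 39.99 and 32.9. Its log2 difference was 0.21, with a 95% interval of -0.38 to 0.79, and turned to -0.17 with centred arrays. This was the 1 locus among those not called whose interval stayed within 1 log2 unit of 0 on both sides. For the other 10, a difference of 2-fold lies inside the interval, so a change of that size was not excluded by these arrays.

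AT1G66880, AT1G18390 and AT1G19390 were above background in TMO5 cells alone. AT1G66880 stood at 12.5, 12.1 and 5.54 in WOX5 against 25.9, 17.8 and 30.1 in TMO5 cells. These groups did not overlap, but the TMO5 geometric mean of 24.0 was just over background and no fold can be given. Its log2 difference of -1.35 ± 0.40 (SE) missed the threshold (limma adjusted p = 0.0594) and passed with quantile normalization (0.0426) and with centred arrays (0.0227). AT1G18390 stood at 35.4, 33.7 and 21.6 against 40.5, 49.9 and 32.2, with overlapping groups and a log2 difference of -0.45 ± 0.28 (SE). It is the 1 locus with a second single-gene probe set, which was dimmer and gave -2.55 ± 1.18 (SE), within background in both groups. AT1G19390 stood at 29.8, 7.82 and 44.7 against 37.8, 29.7 and 31.3. WOX5 replicate 2 was far below the other WOX5 arrays here, and the log2 difference of -0.58 turned to 0.16 without it. Neither AT1G18390 nor AT1G19390 passed (limma adjusted p = 0.292 and 0.561).

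The 6 loci within background in both groups were AT1G16260, AT1G17910, AT1G69730, AT3G25490, AT5G38210 and AT1G22720. For these the array gives no level in either group, and no fold is stated. Over all genes, 27.7% were within background in both groups. AT1G16260 was the 1 of the 6 with groups that did not overlap, at 35.2, 32.4 and 24.6 in WOX5 against 23.2, 15.4 and 13.9 in TMO5 cells. Its log2 difference was 0.84 ± 0.26 (SE; limma adjusted p = 0.0727), and it passed as higher with the 20th percentile floor (log2 difference 0.66, adjusted p = 0.0405). The 3696 genes within background in both groups had a median log2 difference of 0.20, and the 27 bacterial controls a median of -0.32. The background level was 31.1 in WOX5 and 23.4 in TMO5 cells, so the choice of these genes admits higher values in WOX5. Their median is therefore not read as typical of this brightness. AT3G25490, AT1G69730 and AT1G22720 had log2 differences of 0.51, 0.49 and 0.34, AT1G17910 one of -0.10, and AT5G38210 one of -1.26. The most variable was AT5G38210, with 28.3, 26.7 and 1.24 on the TMO5 arrays and an SE of 1.48.

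Counted over all 14 loci, the arrays of the groups did not overlap for 5, namely AT5G02070, AT3G53840, AT4G31100, AT1G16260 and AT1G66880. The corresponding share of all genes was 44.6%, so lack of overlap was not more frequent among the loci. An absolute log2 difference of at least 1 was reached by 6 loci (42.9%) and by 27.1% of all genes. Of those 6, 3 were called. The others were AT5G38210, AT1G66880 and AT2G23450. AT5G38210 was within background in both groups. The TMO5 geometric means of AT1G66880 and AT2G23450, 24.0 and 23.8, were barely over the background level of 23.4. Log2 SDs between arrays of a group were somewhat larger for the loci than for genes at large. The median SD was 0.47 in WOX5 and 0.39 in TMO5 cells for the loci, against 0.34 and 0.27 for all genes. WOX5 replicate 2 was the highest WOX5 array for 7 loci and the lowest for 3.

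**Figure D3:**
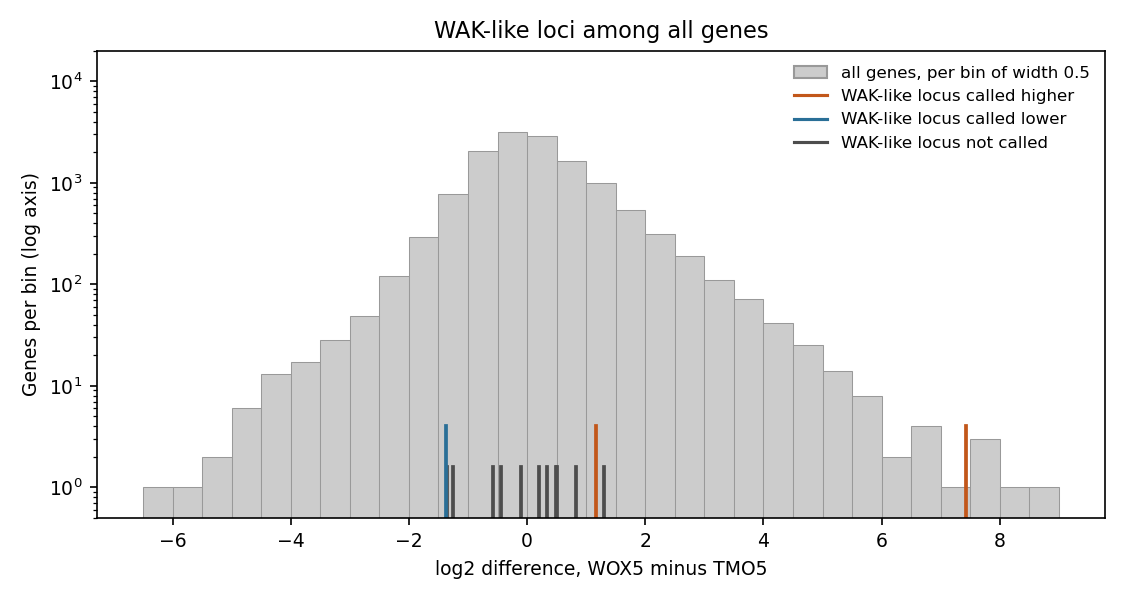
Number of genes (log axis) by log2 difference, WOX5 minus TMO5, in bins of width 0.5 for all 13355 genes, with a tick for each WAK-like locus. Of the 14 loci, 13 lie between -1.37 and 1.31, in the body of the distribution, and AT5G02070 at 7.42 lies in its upper tail.

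In TAIR10.1 gene order, the 14 loci have 28 flanking protein-coding genes, and 9 of these were measured. Only the gene before AT1G17910, AT1G17890 (GER2), was called, as higher in WOX5 cells, with a log2 difference of 1.20 (limma adjusted p = 0.0366), while AT1G17910 itself was within background. The gene before AT4G31100, AT4G31080, was not called, with a log2 difference of 0.25 (limma adjusted p = 0.449). Neither flanking gene of AT5G02070 or of AT3G53840 was measured.

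Genes that act with WAKs, or that sense the wall by other routes, were counted from lists drawn up by locus. The first list, of 21 genes, was drawn up around WAK partners and pectin fragment signalling and also holds sugar-cleaving and sugar-oxidising enzymes, and 5 of its genes were measured. None of the 5 was higher and 2 were lower in WOX5 cells, where 9.43% of all genes were lower. The gene table gives these 2 loci no name or role. Their falls are not read here as a result on WAK partners or pectin fragments, and such a link was not tested. AT1G62660 had a level of 200 ± 64.99 in WOX5 and 629 ± 148 in TMO5 cells (SD, n = 3), a fall of 3.21-fold (limma adjusted p = 0.0166). AT4G20860 was at least 2.90-fold lower, at 14.8 ± 2.38 against 99.2 ± 47.5 (limma adjusted p = 0.0116). ADPG1, a polygalacturonase that cuts pectin, was within background in both groups, with a log2 difference of 0.72 ± 0.51 (SE). AT1G48100, also within background in both groups, had a larger log2 difference of 1.87 ± 0.71 (SE) and did not pass (limma adjusted p = 0.112). The median log2 difference of the 5 was -0.13. AT1G62660 lost its call without WOX5 replicate 1, TMO5 replicate 1 or TMO5 replicate 3 (limma adjusted p of 0.0529 to 0.0537), leaving 1 fall, and AT1G48100 was called higher without TMO5 replicate 2 (0.049).

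Of 24 other listed receptor kinases of wall sensing and their cofactors, 13 were measured, of which 1 was higher and 2 lower in WOX5 cells, or 23.1% against 22.2% of all genes. FER (FERONIA), a receptor kinase that binds pectin and RALF peptides, stood at 506 ± 74.4 in WOX5 and 566 ± 50.02 in TMO5 cells (SD, n = 3). THE1 (THESEUS1), which acts in the response to impaired cellulose synthesis, stood at 173 ± 21.0 against 184 ± 36.8. Neither passed, and their 95% intervals ran from -0.61 to 0.27 and from -0.59 to 0.44 on the log2 scale. In this fit both intervals leave room only for differences under 2-fold. That limit depends on the scaling, since with centred arrays the log2 differences moved from -0.17 to -0.55 for FER and from -0.07 to -0.45 for THE1. The locus called higher was AT5G24010, at least 2.81-fold, at 67.7 ± 19.96 against 7.58 ± 6.02 (limma adjusted p = 0.0229). AT4G08850 and AT2G21480 were called lower. The first was at least 1.10-fold lower, at 4.71 ± 2.33 against 37.3 ± 18.1 (limma adjusted p = 0.013), a call lost with the 20th percentile floor (log2 difference -0.84, adjusted p = 0.119), and AT2G21480 was within background in both groups, at 12.2 ± 3.09 against 22.4 ± 1.48 (limma adjusted p = 0.0349). With each of 4 arrays left out in turn, WOX5 replicates 1, 2 and 3 and TMO5 replicate 3, no gene of this list was called higher, and falls numbered 1 without any 1 array other than WOX5 replicate 1. The median log2 difference of the 13 was -0.05.

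RALF peptides, ligands of FER and its relatives, and the LRX proteins that hold them in the wall, had 4 of 11 listed genes measured, and 2 were higher in WOX5 cells. Over all genes 12.7% were called higher, and with 4 genes measured the list allows no comparison of shares. RALFL34, a peptide gene, had means of 1746 ± 101 with WOX5 and 401 ± 51.5 with TMO5 (SD, n = 3), which is 4.37-fold or 2.13 ± 0.16 on the log2 scale (SE; limma adjusted p = 0.00146). RALFL33 was 1.798-fold higher (limma adjusted p = 0.0328), and it lost its call without WOX5 replicates 2 or 3 or any 1 TMO5 array (adjusted p of 0.0504 to 0.101), with quantile normalization (0.0808) and with centred arrays (0.138). The list of salicylic acid and pattern-triggered defence genes had 2 of 21 genes measured, EFR and AT1G26380. The smaller p belonged to AT1G26380, with a log2 difference of 0.95 ± 0.93 (SE; limma adjusted p = 0.497). Both were within background in both groups, so these data say nothing on that response.

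**Figure D4:**
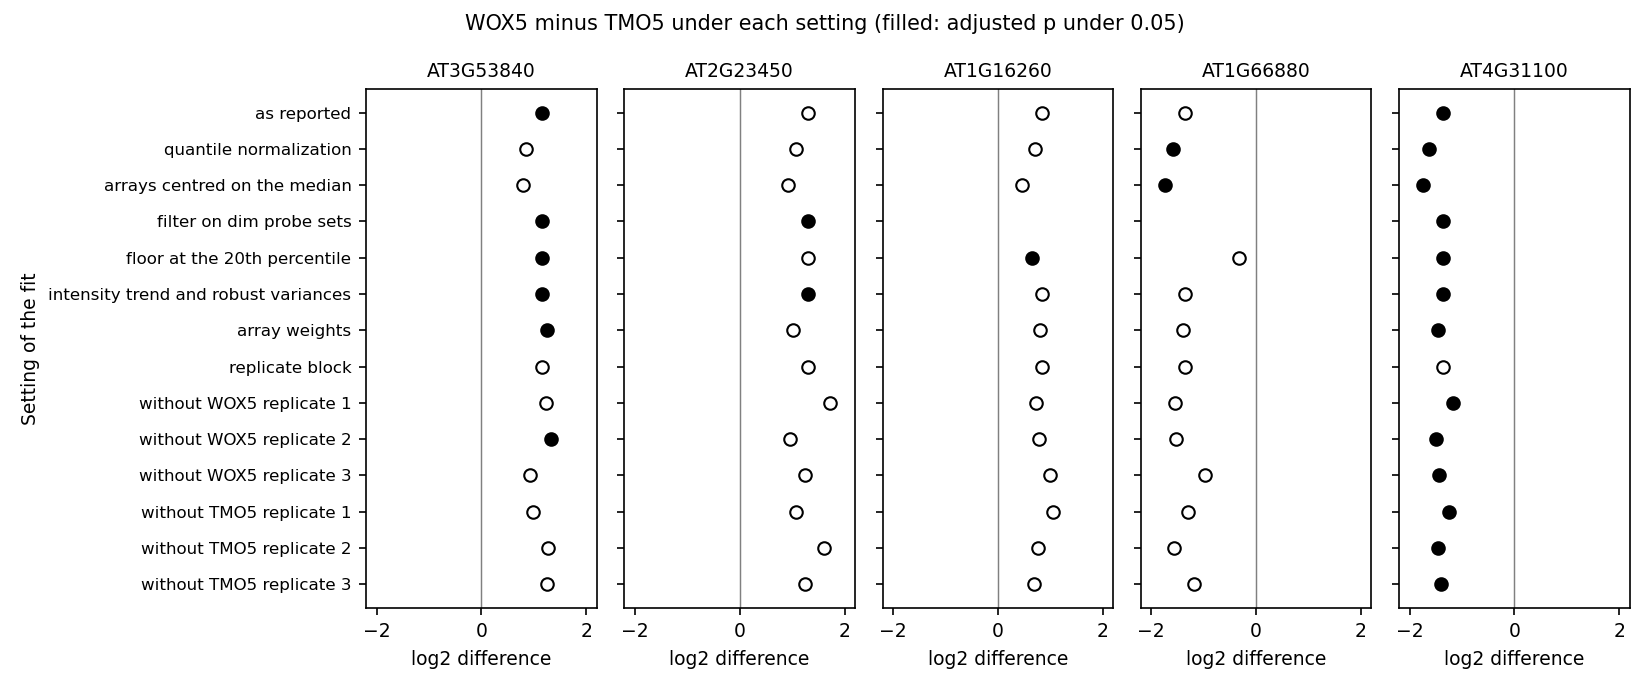
Log2 difference, WOX5 minus TMO5, of 5 WAK-like loci under the fit as reported and under each other setting, 1 panel per locus. Filled circles have a limma adjusted p under 0.05, and a gap marks a locus left out by the filter on dim probe sets. AT4G31100 is called in all settings except the replicate block, AT3G53840 lies near the threshold, and all circles of a panel lie on the same side of 0.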

How the data were processed

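RNA from sorted root cells, 3 WOX5::GFP and 3 pTMO5::GFP samples grouped by their titles, was labelled with biotin for Affymetrix arrays, per the labels' protocols. The table that the authors deposited holds linear intensity values for 22810 probe sets, and its software was not stated in any source used here. Deposited intensity had a mean of 250.02 to 250.03 on each array after trimming 2% at each end, so arrays were already on a common scale, with medians of 91.6 to 92.5 in WOX5 and 68.1 to 74.6 in TMO5.

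Values under 1 were raised to 1 (1040 values), log2 was taken and 64 control probe sets were set aside. Groups were compared with limma 3.58.1 in R 4.3.3, with Benjamini-Hochberg adjustment over 22746 probe sets, a threshold of 0.05 and no covariate. The fit was also run on simulated data, with the spread of the TMO5 arrays in both groups and changes placed in brighter probe sets only. That run does not cover loci near background, and no result here rests on it. The number of arrays, 3 per group, limits the precision. Gene names came from the platform annotation, updated by gene ID through the TAIR10.1 gene table. Of the tested probe sets, 13513 had 1 gene, 503 had several and 8730 had no name. No coordinates or sequences are printed.

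The loci, the lists and the tests were chosen with earlier results of these data known, so no list was tested as a set. Every measured WAK-like locus is described, and of each other list the 2 largest rises and falls that passed, or the gene with the smallest p. FER, THE1, ADPG1, AT1G48100 and EFR were named outside this rule after their values were seen. The way of setting the background level, on geometric means per group, was also set after values were seen. Alternatives were quantile normalization, centring on the median, a filter dropping the dimmest 1/3 of probe sets, a floor at the 20th percentile, an intensity trend with robust variances, array weights, a replicate block and leaving out each array.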

Additional observations from a re-analysis of the deposited data

How the results depend on the processing

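AT5G02070 was called higher in WOX5 cells in all 13 other settings, with log2 differences of 5.95 to 7.82 and limma adjusted p up to 0.0213. Loci called higher numbered 1 in place of 2 with quantile normalization, centred arrays and the replicate block, and 1 to 2 when 1 array was left out. Loci called lower numbered 2 in place of 1 with quantile normalization and centred arrays, 0 with the replicate block, and 1 without any 1 array. Loci called higher numbered 3 with the filter on dim probe sets and the intensity trend with robust variances, where AT2G23450 was added, and with the 20th percentile floor, where AT1G16260 was added. Centring and quantile normalization move the median of all probe sets from 0.03 to -0.35 and -0.14 on the log2 scale. Signs turned only for differences that were not called. These were AT1G17910 (0.19 with the 20th percentile floor, and -0.86 to 0.42 without 1 array), AT1G19390 (-1.10 to 0.16 without 1 array) and AT1G69730 (-0.072 to 1.10 without 1 array). With centred arrays AT1G25390 turned to -0.17 and AT1G22720 to -0.042, and AT1G22720 ran from -0.075 to 0.56 without 1 array. THE1 (AT5G54380) turned to 0.002 with array weights and ran from -0.224 to 0.069 without 1 array. The causes of these changes were not tested. Of the 14 loci, 6 remained in the fit with the filter on dim probe sets.

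Same-numbered arrays did not deviate together, with correlations of their deviations from group means of -0.05, 0.02 and 0.02, so the numbers are not taken to pair the samples. With the replicate block AT5G02070 was the 1 locus called, and AT3G53840 (limma adjusted p = 0.0766) and AT4G31100 (0.0704) were not. Over all probe sets the block gave 1719 rises and 551 falls, against 3252 and 2159 as reported. In the wall-sensing receptor list the block left 0 rises and 0 falls (AT4G08850 at 0.0526), and in the RALF and LRX list 1 rise.

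Falls over all probe sets were 5297 with centred arrays, 3245 with the filter on dim probe sets, 3246 with the 20th percentile floor, 3314 with the trend, and 726 to 2000 without 1 array, where rises numbered 2101 to 2854. Rises against falls were 2241 to 5297 with centred arrays and 2565 to 2866 with quantile normalization. The wall-sensing list had 3 falls with quantile normalization and with centred arrays. The filter on dim probe sets kept 4 of its 13 genes and none of the 3 called, with 0 rises and 1 fall, AT5G39030. With the 20th percentile floor AT4G08850 (adjusted p = 0.119) and AT2G21480 (0.218) lost their calls and AT5G39030 was the 1 fall. With the trend AT4G08850 was the 1 fall, and AT5G39030 was the added one with both scalings. The list had 0 to 1 rises and 1 to 2 falls without 1 array. The RALF and LRX list had 1 rise with quantile normalization and with centred arrays and 1 to 2 without 1 array. The list of WAK partners had 0 to 1 rises and 1 to 2 falls without 1 array.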
